A study of Homo sapiens with 4 samples.

Results

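TGF-beta and BMP signalling was followed through RNA recovered with tagged miR-26a from DU-145 cells, an established androgen-independent line of human prostate cancer. The 32 genes were taken by symbol and cover ligands, receptors, Smads, their regulators and the ID target genes, among 25688 gene names in the tables. The 2 biotin libraries came from cells transfected with 60 nM of mixed miR-26a duplexes that carried a 3′ biotin and a thiouridine at nucleotide 7 or 17. The 2 control libraries came from cells given the same dose of an untagged miR-26a duplex. All 4 cultures were irradiated at 365 nm and their RNA was passed over streptavidin beads, so the controls measured what the beads retained without a tag. Both groups therefore contained added miR-26a, and biotin and thiouridine were never separated. The series design names 2 biological replicates per group. RNA before the beads was not analysed here, so a larger recovered share and a larger amount in the cells cannot be told apart, nor can fewer cells with an RNA and less RNA per cell.

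Ligands of this family bind a type II receptor kinase, which activates a type I receptor. Type I receptors phosphorylate receptor-regulated Smads, SMAD2 and SMAD3 in the TGF-beta and activin branch and SMAD1 and SMAD5 in the BMP branch. These join SMAD4 and enter the nucleus, while SMAD6, SMAD7 and the SMURF ubiquitin ligases restrain the signal. In epithelial cancers the pathway is known for slowing proliferation and for promoting changes in cell shape. MicroRNAs repress mRNAs through short sites that pair with their seed, and SMAD1 and SMAD4 have been published as miR-26 targets.

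The mature miR-26a and the sites that match its seed are shown first because the duplexes given to both groups were of miR-26a. The mature sequence is from RefSeq (GRCh38.p14), with its seed, nucleotides 2 to 8, in capitals.
hsa-miR-26a-5p: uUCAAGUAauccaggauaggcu

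A 3′ UTR site that pairs with the whole seed reads TACTTGA and is called here a 7-mer-m8 site. It becomes an 8-mer, TACTTGAA, when an A follows, and the 7-mer-A1 site ACTTGAA lacks the first letter. These overlapping motifs were searched on the transcript strand of GENCODE 29 3′ UTRs. Among 32 members, 8 held a 7-mer-m8 site in the UTR of their most abundant matched transcript, or 25%, against 12.2% of 9162 tested coding genes searched. The median UTR of the members was 1582 bases and that of the tested genes 1001 bases, and the part of length in the share was not tested. The 8 were TGFB1, INHBA, BMPR1A, BMPR1B, LTBP1, SMAD2, SMAD4 and SMAD5.

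The annotation did not always end where the deposited transcripts did. The SMAD1 transcript matched to the most abundant row had a UTR of only 20 bases without a site. A longer SMAD1 model of GENCODE held 2 sites in 145 bases, both within the deposited SMAD1 span. In contrast the sites of TGFB1, INHBA and BMPR1A lay beyond the end of the deposited transcripts. Counting every annotated UTR but only sites within the deposited span, 7 members had a site, namely SMAD1, SMAD2, SMAD4, SMAD5, SMURF2, LTBP1 and BMPR1B. That is 21.9% of the members, against 14.8% of the tested coding genes by the same count. A match describes letters in a window and does not show binding.

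The 7-mer-m8 sites of the Smads, of LTBP1 and of TGFB1 are printed in windows of 30 bases, 5′ to 3′ on the transcript strand, with the matching letters in capitals. For SMAD2 only the site within the deposited transcripts is given. ZFYVE16 is added because it was among the genes that changed and its only match is a 7-mer-A1 site. The windows are from GENCODE 29 transcripts in hg38 coordinates.
SMAD1, 8-mer, chr4:145557969-145557998, plus strand: agccttgcatgTACTTGAAggatggatgag
SMAD1, 7-mer-m8, chr4:145558026-145558055, plus strand: agccttgataaTACTTGAcctctgtgacca
SMAD4, 7-mer-m8, chr18:51079490-51079519, plus strand: ggatatttttgTACTTGAtttgatgtgact
SMAD4, 7-mer-m8, chr18:51081587-51081616, plus strand: aaggagagccaTACTTGAgacatgtgagta
SMAD2, 7-mer-m8, chr18:47839351-47839380, minus strand: cttctttttctTACTTGAgaacttgtaatg
SMAD5, 7-mer-m8, chr5:136179718-136179747, plus strand: gaatatttgctTACTTGAtagaactttggc
LTBP1, 7-mer-m8, chr2:33398602-33398631, plus strand: gaaatgtattaTACTTGAgacattgcacct
TGFB1, 8-mer, chr19:41330454-41330483, minus strand: gatgggaggatTACTTGAAtccaggcattt
ZFYVE16, 7-mer-A1, chr5:80478677-80478706, plus strand: gaagcatctcaACTTGAAgatcaagtcaaa

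The 4 libraries held an estimated 16030000 to 23640000 mapped reads, from the ratio of coverage to FPKM (fragments per kilobase of transcript for a set number of mapped fragments). At that depth 3 reads on a transcript of 1 kb were worth 0.127 to 0.187 FPKM, a floor that covers counting error only. All 8 epithelial markers of DU-145 reached 1 FPKM in some library, with sums of 271.4 and 295.5 FPKM in biotin and 244.6 and 287.4 in control libraries. Within this list CD44 (log2 fold change 2.12, adjusted p = 0.00173, limma) and EGFR (1.03, adjusted p = 0.0137) rose, and the other 6 were not called, with the keratins KRT7, KRT8, KRT18 and KRT19 between -0.41 and -0.22. Fibroblast and endothelial lists did not reach 1 FPKM for any gene, and 2 of 6 blood markers did. Of these CD14 was at 2.57 and 1.28 FPKM in biotin libraries against 0.675 and 0.372 in controls (adjusted p = 0.0436, limma). CD74 was at 0.564 and 0.651 FPKM in biotin libraries against 1.67 and 1.50 in controls (adjusted p = 0.0223, limma). Any part of these markers in the results was not tested.

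Across the pathway 2 of 25 tested members rose with the biotin tag, 2 fell and 21 did not pass the test. The type I receptor ACVR1B and the inhibitory Smad SMAD6 rose, and the target ID2 and the endosomal protein ZFYVE16 fell. SMAD1 and SMAD4 were not among the calls. Tested genes had at least 1 FPKM in at least 2 libraries, and log2(FPKM + 1) was compared by limma's two-sided test. Calls needed a p under 0.05 after Benjamini-Hochberg adjustment over all 9933 tested genes. Of these genes 13.2% were called higher and 9.31% lower, against 8% of the tested members in each direction. At an unadjusted p under 0.05 the members passing were again these 2 and 2, while 19.5% of all tested genes passed as higher and 19.8% as lower. The median log2 fold change was -0.08 over the members and -0.06 over all tested genes. With 2 libraries a group, an exact permutation test of a single gene cannot go below p = 0.333, so each call rests on the spread that limma pools over genes. Leaving out a library changed the calls, and these values are given with each gene.

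**Figure D1:**
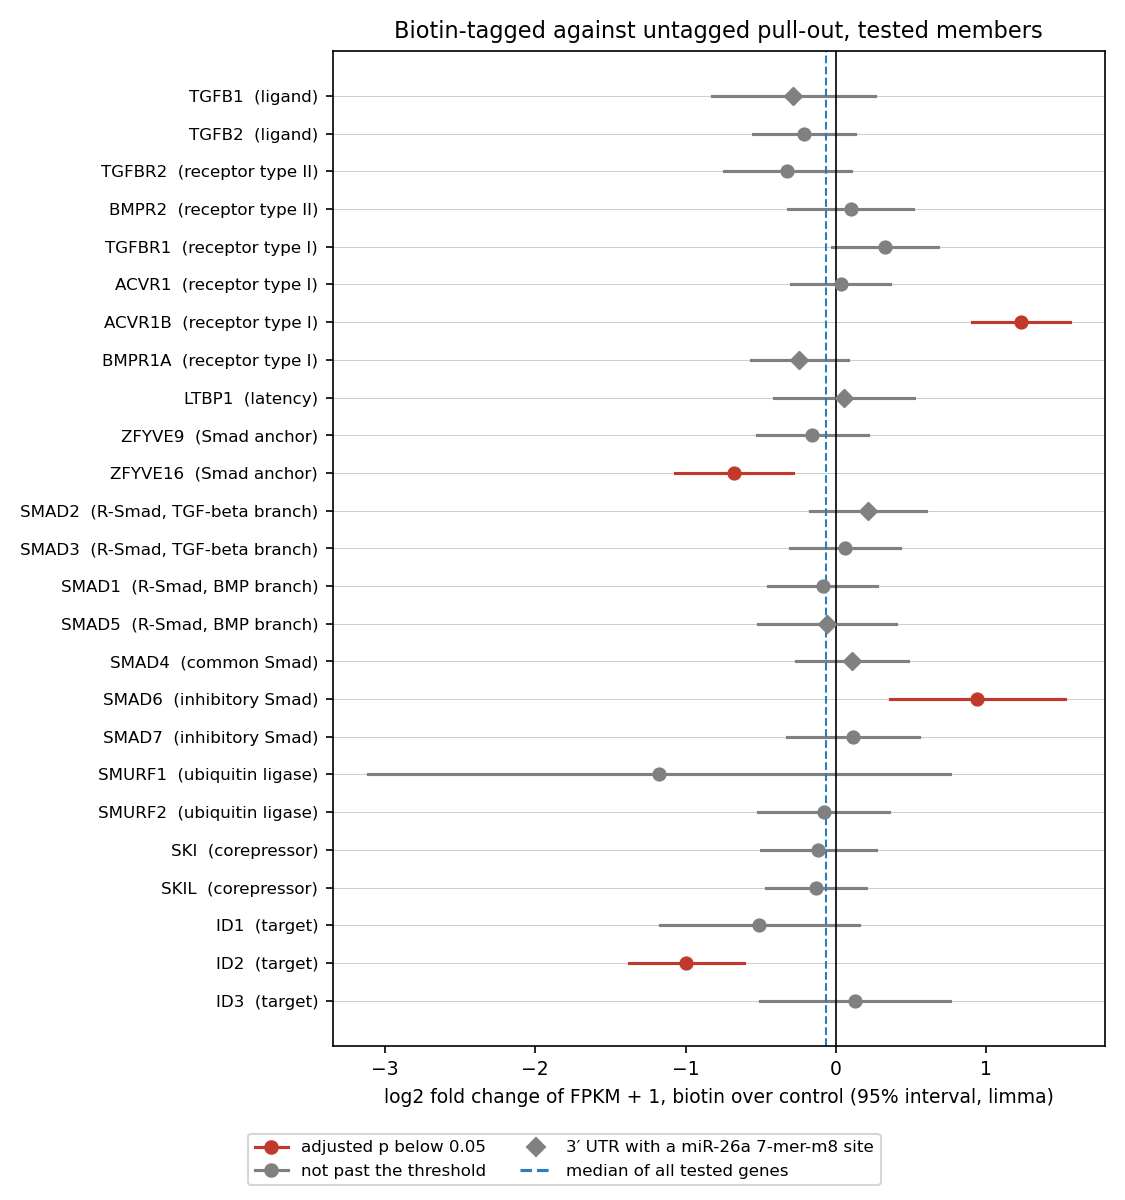
Log2 fold change of FPKM + 1 in biotin over control libraries for the 25 tested members, grouped by role, with 95% intervals from limma (n = 2 libraries per group). ACVR1B and SMAD6 lie to the right and ID2 and ZFYVE16 to the left as the coloured calls; diamonds mark members with a 7-mer-m8 site in the matched 3′ UTR, and none of these passed the threshold.

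Ligands were scarce. TGFB1, the main TGF-beta ligand of epithelial cells, was at 4.77 and 2.93 FPKM in the biotin libraries, against 5.37 and 4.27 FPKM in the controls. The groups overlapped (log2 fold change -0.28 ± 0.22 SE, adjusted p = 0.386, limma). TGFB2, a second ligand of the same receptors, was at 0.815 and 0.849 FPKM in biotin libraries and at 1.10 and 1.15 in controls. Both biotin values of TGFB2 were below both control values, but the difference did not pass (adjusted p = 0.306, limma). BMP2 was listed at 0 in all 4 libraries, and BMP4 and the activin subunit gene INHBA stayed under the value of 3 reads in each. INHBA was listed at 0 and 0.00894 FPKM in biotin libraries and at 0 and 0.00454 in controls, too low to compare at this depth. The 8-mer in its annotated UTR also lay beyond the end of the deposited transcript.

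Among type II receptors none passed the test. TGFBR2, which binds TGF-beta, was the most abundant at 8.45 and 10.2 FPKM in biotin libraries and 11.2 and 12.6 FPKM in controls. The biotin values lay below the controls without overlap (log2 fold change -0.32 ± 0.17 SE, adjusted p = 0.221, limma). BMPR2, the BMP type II receptor, was at 3.66 and 4.70 FPKM in biotin libraries and at 3.46 and 4.20 in controls, and the groups overlapped. ACVR2A, an activin type II receptor, was at 0.791 and 1.07 FPKM in biotin libraries and 0.842 and 0.911 in controls and did not pass the filter.

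ACVR1B, also known as ALK4, is the type I receptor for activins and carried the largest increase of the 25 tested members. It was at 5.50 and 5.52 FPKM in the biotin libraries and at 1.75 and 1.80 FPKM in the controls. Both biotin libraries were thus about alike and well above both controls, with means of 5.51 ± 0.0147 and 1.77 ± 0.0334 FPKM (SD, n = 2 each). The log2 fold change was 1.23 ± 0.13 (SE) with an adjusted p of 0.00294 (limma), and 552 of the 9933 tested genes had a larger one. ACVR1B was also the 1 member whose FPKM + 1 in each biotin library was at least 2 times that of each control, as in 5.08% of all tested genes. No member was at least 2-fold lower by the same rule, as 1.21% of tested genes were. Without control replicate 1 the log2 fold change was 1.22 and the adjusted p 0.0549 (limma), and with any other library left out the call held. No 7-mer-m8 site was found in any annotated 3′ UTR of ACVR1B.

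The higher ACVR1B level stood on a single transcript row. NM_020327, of 4516 bases, was listed at 5.50 and 5.52 FPKM in biotin libraries and 1.55 and 1.49 in controls. NM_020328 was listed at 0 in both biotin libraries and at 0.202 and 0.308 FPKM in controls, and NM_004302 at 0 in all 4. These rows share most of their exons, so their division by the authors' software is uncertain. Tested transcript by transcript, NM_020327 was the only one of 29 member transcripts that was called higher, where 2.8% of 11998 tested transcripts were. None of the 29 was called lower, where 1.18% were. The deposited rows of ACVR1B spanned chromosome 12, 51951667 to 51997079 (hg38).

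The other type I receptors did not pass the test. TGFBR1, the partner of TGFBR2, was at 6.10 and 5.62 FPKM in biotin libraries against 4.27 and 4.66 in controls, without overlap (log2 fold change 0.33 ± 0.15 SE, adjusted p = 0.1503, limma). BMPR1A, a BMP receptor, was at 1.94 and 1.95 FPKM in biotin libraries against 2.43 and 2.54 in controls, also without overlap and in the other direction (-0.24 ± 0.13, adjusted p = 0.228). ACVR1, a BMP and activin receptor, was at 2.97 and 2.92 FPKM in biotin libraries against 2.73 and 2.99 in controls. BMPR1B was low, at 0.0391 and 0.0590 FPKM in biotin and 0.0466 and 0.117 FPKM in control libraries.

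ACVR1B took 33.2% and 34.4% of the summed FPKM of the 5 type I receptors in the biotin libraries, against 15.6% and 14.8% in the controls. BMPR1A took 11.8% and 12.1% in biotin libraries and 21.7% and 21.0% in controls. Since shares of a class sum to a fixed total, a gain of one lowers the others. The class as a whole summed to 16.6 and 16.1 FPKM in biotin and 11.2 and 12.1 FPKM in control libraries.

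**Figure D2:**
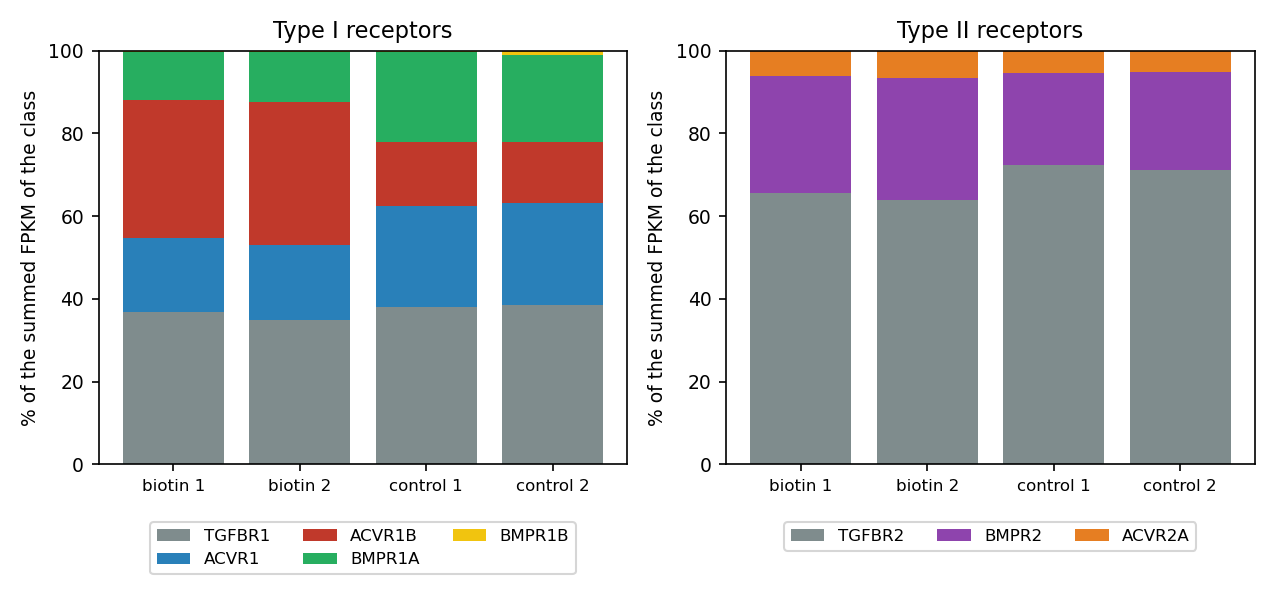
Share of each receptor in the summed FPKM of its class (%), for each library, with type I receptors on the left and type II receptors on the right. ACVR1B holds 33.2% and 34.4% of the type I sum in the biotin libraries and 15.6% and 14.8% in the controls, while TGFBR2 leads the type II sum in all 4.

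The co-receptors TGFBR3 (betaglycan) and ENG (endoglin), which present ligand to the signalling receptors, were below the filter. TGFBR3 was at 0.304 and 0.356 FPKM in biotin libraries and at 0.462 and 0.563 in controls. ENG, at 0.387 and 0.0848 FPKM in biotin libraries, was listed at 0 and 0.102 in controls. LTBP1, which holds TGF-beta in its latent form in the matrix, was at 1.02 and 0.892 FPKM in biotin libraries and 0.611 and 1.20 in controls. The groups overlapped for LTBP1 although its UTR held a site (log2 fold change 0.06 ± 0.19 SE, adjusted p = 0.855, limma).

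ZFYVE16 (endofin) and ZFYVE9 (SARA) are related endosomal proteins that bring Smads to the receptors. ZFYVE16 fell to 4.02 and 3.88 FPKM in biotin libraries, against 6.19 and 7.74 FPKM in controls. The groups did not overlap, and the log2 fold change was -0.68 ± 0.16 (SE, adjusted p = 0.0320, limma). ZFYVE9 was at 1.24 and 1.49 FPKM in biotin libraries and 1.46 and 1.80 in controls, an overlap, and did not pass (-0.16 ± 0.15, adjusted p = 0.485). Whether the pair differed from each other was not tested. The short ZFYVE16 transcript NM_001284237 was listed at 0 in both biotin libraries and at 1.40 and 1.80 FPKM in controls. NM_014733 was at 3.16 and 2.83 FPKM in biotin libraries and 3.97 and 5.94 in controls. Another row, of 7346 bases, went the other way, at 0.864 and 1.06 FPKM in biotin libraries and 0.825 and 0 in controls. These rows overlap in span, so their division is uncertain. The call was lost without control replicate 1 (adjusted p = 0.0797), without control replicate 2 (0.130), without biotin replicate 1 (0.122) and without biotin replicate 2 (0.140, all limma). It was also lost with no filter on low values (0.0849) and by single transcript (0.244).

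SMAD1, which carries BMP signals, was at 1.99 and 1.75 FPKM in the biotin libraries and at 1.84 and 2.26 FPKM in the controls. The 4 values interleaved, and the log2 fold change was -0.09 ± 0.15 (SE, adjusted p = 0.694, limma) with a 95% interval from -0.45 to 0.27. SMAD4, the Smad shared by both branches, was at 3.87 and 4.32 FPKM in biotin libraries and 3.37 and 4.11 in controls. These groups overlapped too (0.11 ± 0.15, adjusted p = 0.640), with an interval from -0.27 to 0.48. Both upper bounds lay below a doubling of FPKM + 1, which at these levels is more than a doubling of FPKM. The intervals hold for the gene sums under limma's pooled spread, and smaller changes remain possible in both directions.

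The 2 SMAD1 transcript rows differed in direction, but they overlap in span, so their division is uncertain. NM_005900 was listed at 0 in both biotin libraries and at 0.493 and 1.57 FPKM in controls. NM_001003688 was at 1.99 and 1.75 FPKM in biotin libraries and 1.35 and 0.694 in controls. Both rows end at the same base, so the 2 sites of the longer model lie within the span of each. NM_001003688 did not pass the test by transcript (log2 fold change 0.52, adjusted p = 0.293, limma). The other row was below the filter and was not tested. Antisense genes are annotated across SMAD1, and reads cannot be assigned by strand here because the strand setting is not given in the sources used here. The limit is not particular to SMAD1. The spans of 21 of the 32 members overlapped another annotated gene or pseudogene, with antisense genes at SMAD3, SMAD5 and TGFB2 among them. Any part of such overlaps in the values was not tested.

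The other receptor-regulated Smads were near their control values. SMAD2 was the most abundant Smad at 13.9 and 13.6 FPKM in biotin libraries against 12.1 and 11.4 in controls, without overlap (0.21 ± 0.16 SE, adjusted p = 0.357, limma). SMAD3, its partner in the TGF-beta branch, was at 6.63 and 5.98 FPKM in biotin libraries against 6.27 and 5.72 in controls. SMAD5, of the BMP branch, was at 6.01 and 7.76 FPKM in biotin libraries against 6.41 and 7.97 in controls. SMAD3 and SMAD5 overlapped between the groups (adjusted p = 0.789 and 0.847, limma). The 6 tested members with a 7-mer-m8 site in the matched UTR, namely TGFB1, BMPR1A, LTBP1, SMAD2, SMAD4 and SMAD5, had log2 fold changes between -0.28 and 0.21. None of the 6 was called. Over all tested coding genes, 164 of 1114 with such a site were called higher and 64 lower, and of 8048 without one 1043 were called higher and 762 lower. With 6 genes, a count of 0 cannot be told from these shares. For TGFB1 and BMPR1A the site lay beyond the deposited transcripts. SMAD1 and SMURF2 held sites within the deposited span in other annotated UTRs. They counted here as without a site, and neither was called.

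SMAD6, which blocks BMP receptor signalling, was at 3.46 and 2.62 FPKM in biotin libraries, against 0.676 and 1.61 FPKM in controls. Both biotin values exceeded both controls, and the controls differed among themselves more than the biotin libraries did on the log scale. The log2 fold change was 0.94 ± 0.24 (SE, adjusted p = 0.0383, limma). The call was lost without control replicate 1 (adjusted p = 0.135), without control replicate 2 (0.0578), without biotin replicate 1 (0.165) and without biotin replicate 2 (0.0964, all limma). It was also lost with a pseudocount of 0.1 (0.0535), with no filter on low values (0.129) and by single transcript (0.179). The single-transcript log2 fold change was the same, 0.94. All of this signal stood on NR_027654, a noncoding RefSeq record, and the coding record NM_005585 over the same span was listed at 0 in all 4 libraries, so their division is uncertain. SMAD7, which inhibits both branches, was at 0.805 and 1.30 FPKM in biotin libraries and 1.02 and 0.751 in controls, with overlap (0.12 ± 0.18, adjusted p = 0.669).

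The ubiquitin ligases SMURF1 and SMURF2 mark receptors and Smads for degradation. SMURF1 was at 5.77 FPKM in biotin replicate 1 but was listed at 0 in biotin replicate 2, against 5.41 and 4.40 FPKM in controls. Its status there was not marked as failed, and why this library was listed at 0 was not tested. With all libraries SMURF1 did not pass (log2 fold change -1.18 ± 0.80 SE, adjusted p = 0.316, limma). Without biotin replicate 1, which leaves the library at 0 alone in its group, it was called lower (-2.56, adjusted p = 0.00831). SMURF2 was at 5.24 and 6.63 FPKM in biotin libraries and 5.69 and 6.96 in controls, with overlap. The Smad corepressors were near their controls as well: SKI was at 2.41 and 2.69 FPKM in biotin libraries against 2.50 and 3.24 in controls (adjusted p = 0.616, limma). SKIL was at 1.51 and 1.43 FPKM in biotin libraries against 1.62 and 1.80 in controls, without overlap (adjusted p = 0.514, limma).

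**Figure D3:**
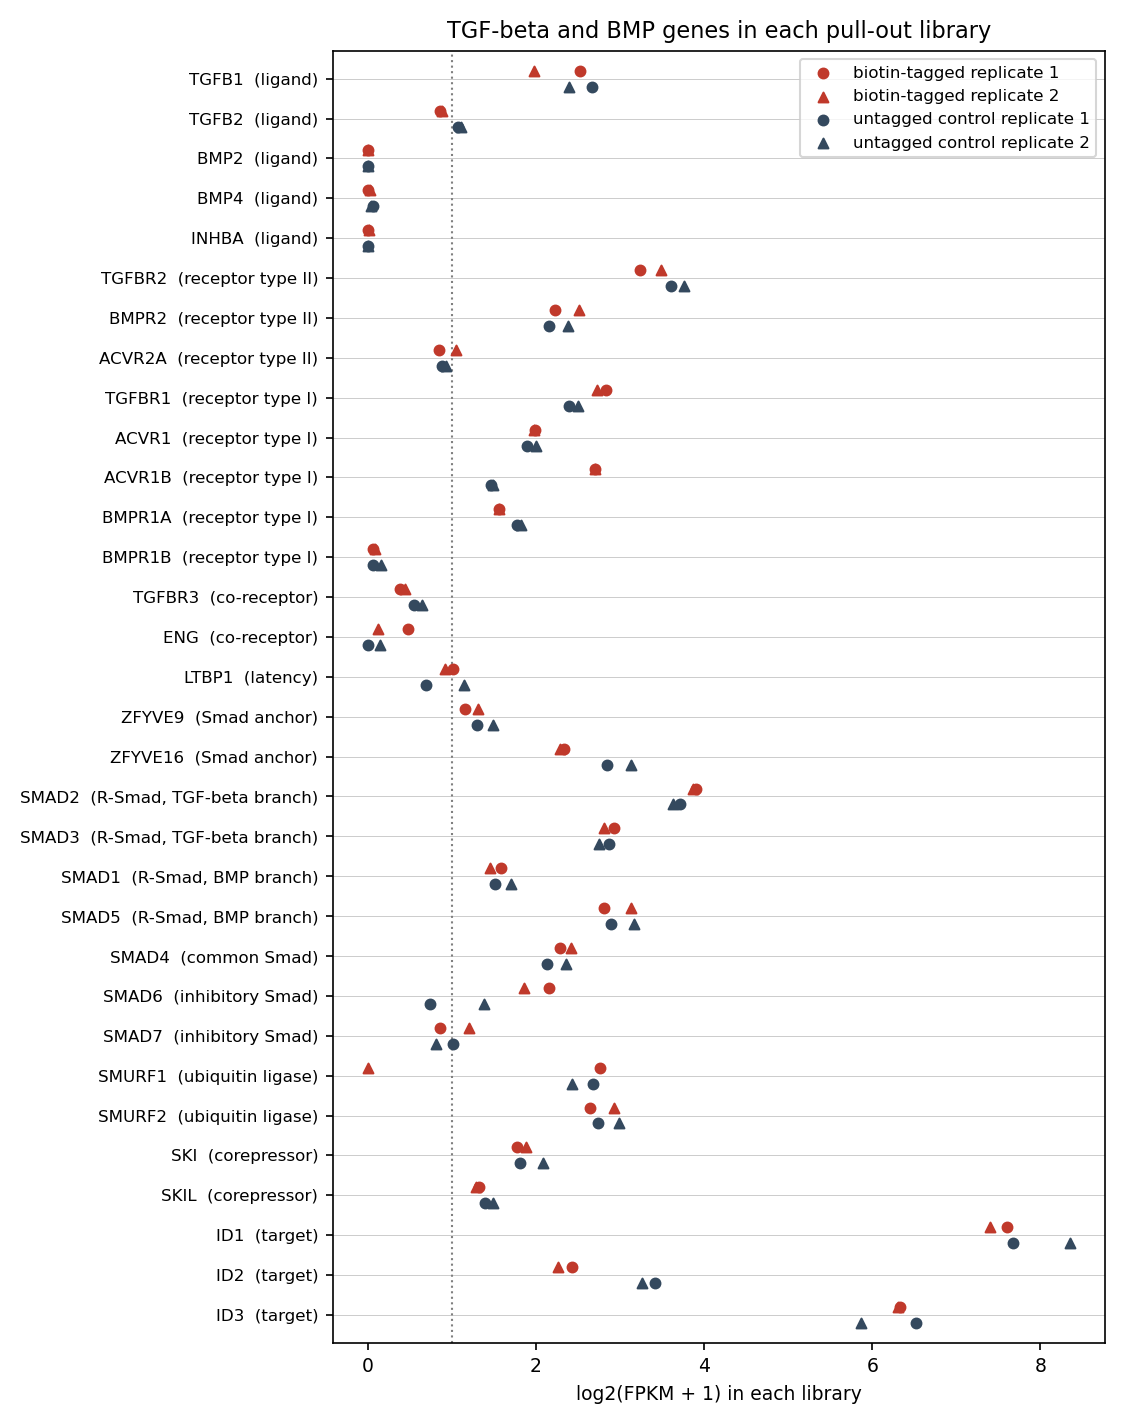
Level of each of the 32 members as log2(FPKM + 1) in each library, grouped by role, with biotin libraries drawn above controls; the dotted line marks 1 FPKM. ID1 and ID3 stand far above the rest, BMP2 lies at 0, and SMURF1 is at 0 in biotin replicate 2.

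The ID genes encode inhibitors of helix-loop-helix transcription factors and are direct targets of BMP Smads. They held 73.4% to 80.1% of the summed FPKM of all 32 members in each library. ID2 fell to 4.38 and 3.80 FPKM in biotin libraries, against 9.68 and 8.58 FPKM in controls. The groups were far apart relative to their spread, with means of 4.09 ± 0.410 and 9.13 ± 0.779 FPKM (SD, n = 2 each). The log2 fold change was -0.99 ± 0.16 (SE, adjusted p = 0.00988, limma), and 265 tested genes had a smaller one. Without control replicate 1, control replicate 2 or biotin replicate 2 the adjusted p of ID2 was 0.0789, 0.0632 and 0.0673, and without biotin replicate 1 it was 0.0455 (limma). Tested by single transcript it was 0.0675. ID2 has only 1 deposited transcript, so that fit used the same values and gave the same log2 fold change.

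ID1 and ID3 did not pass the test. ID1 was at 192.5 and 168.4 FPKM in biotin libraries and at 203.0 and 324.7 in controls. The values did not overlap, but control replicate 2 stood well above the other 3 (log2 fold change -0.51 ± 0.27 SE, adjusted p = 0.217, limma). ID3 was at 79.4 and 78.3 FPKM in biotin libraries and 90.6 and 57.1 FPKM in controls, so both biotin values lay between the controls (0.13 ± 0.26, adjusted p = 0.743). A difference between the 3 genes was not tested. No 7-mer-m8 site was found in the annotated UTRs of these 3 genes.

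Without regard to the test, both biotin values lay above both controls in 4 of 25 tested members and below them in 7. Among all tested genes this was so in 29.4% (higher) and 37.7% (lower), against 16% and 28% of the members. Of the 25, 19 had a log2 fold change no larger than 0.35 in size. That bound was not among the planned rules, and the matching share of all tested genes was not counted. The quartiles of the members were -0.24 and 0.11, and those of all tested genes -0.36 and 0.31.

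**Figure D4:**
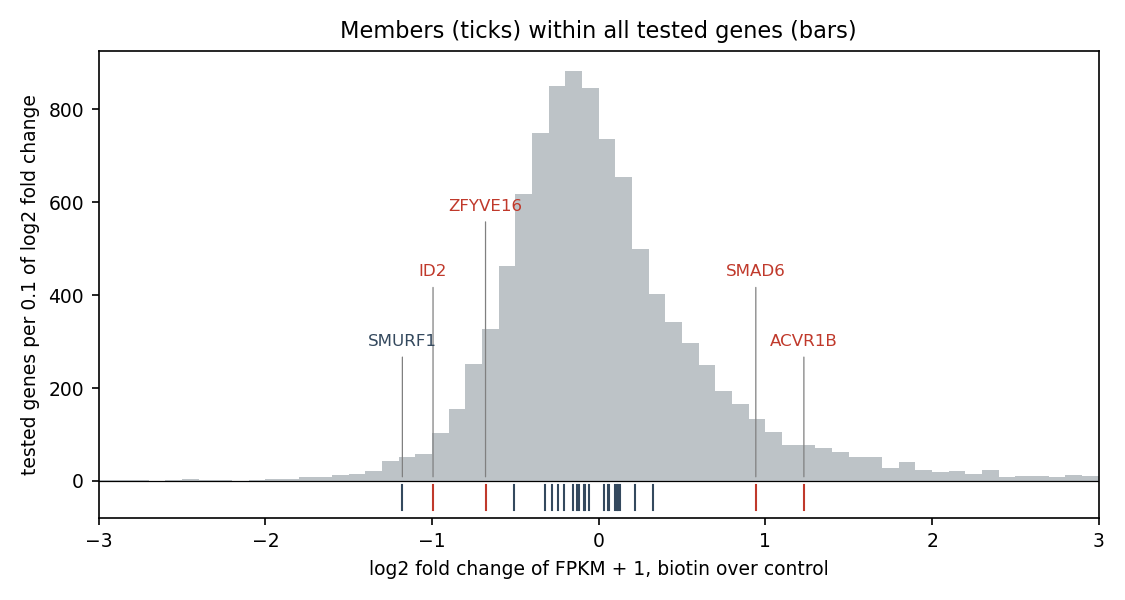
Number of tested genes per 0.1 of log2 fold change of FPKM + 1 in biotin over control libraries (bars, 9933 genes, of which 42 lie beyond the plotted range of 3 in size), with the 25 tested members as ticks below the axis. ACVR1B and SMAD6 stand in the right flank, ID2 and ZFYVE16 in the left, and most members near the centre.

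A wider list of 96 further pathway genes was read for comparison, of which 52 were tested. In it 4 rose, 4 fell and 44 did not pass, so that 7.69% were called in each direction, against the 13.2% higher and 9.31% lower of all tested genes. TGFBI, a matrix protein induced by TGF-beta, was at 94.3 and 89.0 FPKM in biotin libraries and 20.1 and 20.8 in controls. Its log2 fold change was the largest among the tested genes of both lists, at 2.11 ± 0.18 (SE, adjusted p = 0.00127, limma), and it passed with any library left out. No 7-mer-m8 site was found in its annotated UTRs.

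The other increases were smaller. THBS1, a matrix protein that activates latent TGF-beta, was at 7.82 and 7.10 FPKM in biotin libraries against 4.87 and 4.34 in controls. CDKN2B, a cell-cycle inhibitor induced by TGF-beta, was at 2.99 and 3.71 FPKM in biotin libraries against 1.81 and 1.93 in controls. RUNX1, a transcription factor that works with Smads, was at 9.62 and 8.67 FPKM in biotin libraries against 5.42 and 5.87 in controls. None of these 3 genes overlapped between the groups. Their log2 fold changes were 0.59 ± 0.15, 0.60 ± 0.15 and 0.61 ± 0.15 (SE), with adjusted p of 0.0385, 0.0374 and 0.0374 (limma). Each lost its call when any library was left out, with adjusted p from 0.0834 to 0.170 (limma). The single transcripts tested for RUNX1 and CDKN2B had log2 fold changes in the other direction, -0.18 and -0.66, and neither was called.

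The 4 decreases were those of TWSG1, TCF12, STRAP and WWP1. TWSG1, a secreted modulator of BMPs, was at 10.3 and 10.5 FPKM in biotin libraries against 17.4 and 20.1 in controls (log2 fold change -0.79 ± 0.17 SE, adjusted p = 0.0236, limma). TCF12, a helix-loop-helix factor, was at 3.67 and 3.73 FPKM in biotin libraries against 7.95 and 7.37 in controls (-0.88 ± 0.14, adjusted p = 0.0108). STRAP, a receptor-associated inhibitor, was at 10.2 and 9.23 FPKM in biotin libraries against 14.8 and 17.8 in controls (-0.69 ± 0.18, adjusted p = 0.0388). Both biotin values lay below both controls in each of these genes, and likewise in WWP1, a ubiquitin ligase, at 3.27 and 3.25 FPKM in biotin libraries against 4.80 and 5.68 in controls (-0.55 ± 0.15, adjusted p = 0.0453). All 4 lost the call whenever a library was left out, with adjusted p from 0.0654 to 0.168 (limma), and none of them had a 7-mer-m8 site in an annotated UTR.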

How the data were processed

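The tools in the submitters' processing notes are TopHat2 2.0.9 and Cufflinks 2.1.1 with Cuffdiff, after FastQC 0.10.1 and cutadapt, on build hg38. Neither the annotation nor the strand setting is given in the sources used here. The authors deposited 1 Cufflinks table per library with 53209 transcript rows, whose FPKM values served here as the measurement and whose coverage, per the file headers the read depth of a transcript, served to estimate library size. No counts were used. Of 46699 RefSeq accessions 98.6% were matched to a symbol (RefSeq table, then GENCODE 29), and FPKM was summed per gene. Genes with a failed or excess-data status in any library (22) and short structured RNAs were left out of the tests. Genes with at least 1 FPKM in at least 2 libraries entered a limma fit (version 3.58.1, R 4.3.3, variance trend, no block) of log2(FPKM + 1), a scale on which low genes appear to change less than they do. It had 2 residual degrees of freedom plus 4.202 from the prior. The fit was tested on simulated data whose set changes were larger than those of the called members. The simulation therefore does not cover changes of the size called in the members. Seed sites came from GENCODE 29 transcript sequences. Every member was named; of the wider list, genes past the threshold were named. Members, lists and alternatives were chosen with earlier results of these data known. Other settings tried were a pseudocount of 0.1 or 5, an open filter, a mean of 5 FPKM, 3 scalings, no variance trend, single transcripts, a replicate block, each library left out, and other site definitions.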

Additional observations from a re-analysis of the deposited data

How the results depend on the processing

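Quantile, upper-quartile and median-of-ratios scaling, a pseudocount of 5 and no variance trend left 2 members higher and 2 lower. With a pseudocount of 0.1, with no filter on low values, with single transcripts and with the replicate block, 1 member, ACVR1B, was called higher in each and SMAD6 was not. The count was 0 at a mean of at least 5 FPKM, where ACVR1B and SMAD6 were no longer tested. Members called lower numbered 1 with no filter, 1 with the replicate block and 0 with single transcripts, ZFYVE16 losing its call in all 3 and ID2 by single transcript. With a library left out 0 to 1 were higher and 0 to 2 lower, SMURF1 being the second of the lower ones. The wider list had 1 higher and 1 lower with no filter, 1 higher and 3 lower with the block (TWSG1, TCF12 and KLF10, which was not called without it), 1 and 0 with single transcripts, and 1 and 0 whenever a library was left out. All tested genes called under the block were 1078 higher and 534 lower, against 1307 and 925 without it. Same-numbered libraries did not deviate together (correlation of deviations 0.0026 across genes), so the numbers are not taken as pairs. With each library left out the calls over all genes fell as well, to between 190 and 680 higher and between 32 and 227 lower. Such a fit assumes that a lone library varies like the others. The 8-mer definition left 4 members with a site, or 12.5%, against 5.5% of tested coding genes. Adding 7-mer-A1 sites gave 14 members, or 43.8%, against 22.4%. In the longest UTR of each gene 10 members had a 7-mer-m8 site, or 31.2%, against 15.0%. In any annotated UTR it was again 10 members, or 31.2%, against 17.6%. The count within deposited spans was chosen after seeing the data. Sign changes touched uncalled members, and RUNX1 (-0.18) and CDKN2B (-0.66), whose single transcripts were not called. By single transcript the log2 fold changes of ACVR1, SMAD2, SMAD3, SMAD1 and SMURF1 were -0.57, -0.15, -0.11, 0.52 and 0.16, and by median-of-ratios scaling that of SMAD5 was 0.0011. With a library left out the ranges that crossed 0 were -0.018 to 0.082 for ACVR1, -0.047 to 0.24 for BMPR2, -0.20 to 0.46 for ID3, -0.17 to 0.28 for LTBP1, -0.26 to 0.021 for SKI, -0.19 to 0.012 for SMAD1, -0.0012 to 0.13 for SMAD3, -0.0059 to 0.22 for SMAD4, -0.22 to 0.10 for SMAD5, -0.060 to 0.29 for SMAD7, -2.56 to 0.20 for SMURF1 and -0.23 to 0.064 for SMURF2. Except where stated, the causes of these shifts were not tested.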

Other observations

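In the wider list, the latent TGF-beta binding protein gene LTBP3 was at 6.00 and 2.26 FPKM in biotin libraries and listed at 0 and 4.01 in controls, and the ligand gene BMP8B was at 2.24 and 1.52 FPKM in biotin libraries and listed at 0 and 1.28 in controls. In both genes control replicate 1 was the library at 0, with no failed status, and neither passed the test.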
